A study of Mus musculus with 4 samples.

Results

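MHC class II molecules carry peptides to the cell surface, where CD4 T cells read them, and 10 genes that build, load or switch on these molecules were followed in RNA-seq libraries of mouse intestinal crypts. The 10 genes (H2-Aa, H2-Ab1, H2-Eb1, Cd74, Ciita, H2-DMa, H2-DMb1, H2-DMb2, H2-Oa and H2-Ob) were all found among the 53845 rows of the count table, and 9 of them were among the 17504 genes that passed the filter on low counts. They were chosen by name, and selected on the difference between the genotypes that these same 4 libraries had already shown for the classical chains. Their values in WT and Vil-CREPTKO are therefore a description, with no test. Genes of the pathway outside the 10 were tested in the fit over all genes.

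Crypts were isolated from the small intestine of C57BL/6 mice with EDTA, a chelator that loosens the epithelium, and RNA was read without any injury or drug. The WT group, labelled wildtype, had 2 libraries and the Vil-CREPTKO group had 2 libraries. Vil-CREPTKO mice carry Villin-cre, a Cre recombinase driven by an epithelial promoter that is active from gut development onwards, together with floxed alleles of CREPT (Rprd1b), a protein that binds RNA polymerase II. In the mating the study gives for counting births, both parents were homozygous for the floxed allele, so that a littermate without Cre keeps floxed alleles; whether the WT libraries came from such littermates was not stated. The study used both sexes at 6 to 8 weeks of age. Cells outside the epithelium keep CREPT in Vil-CREPTKO mice, and the preparation held some of them, so that the libraries are a mixture.

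Total counts were 47241049 to 49369315 per library. Rprd1b, the deleted gene, was at 60.5 and 61.6 CPM (read counts scaled to a common library size by TMM over the tested genes) in WT and at 26.3 and 29.0 CPM in Vil-CREPTKO (edgeR, adjusted p = 0.00410). WT replicate 2 stood apart, in that it alone expressed Xist, the RNA that coats the inactive X chromosome of female cells, with 42463 counts against 13 to 26 in the other libraries. The WT group thus held 1 Xist-positive and 1 Xist-negative library, and both Vil-CREPTKO libraries were Xist-negative. Each class II difference is given with and without WT replicate 2, and the comparison without it is the comparison among Xist-negative libraries.

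An MHC class II molecule is a pair of an alpha and a beta chain that assembles around the invariant chain, Cd74, travels to an acidic endosome, loses the invariant chain to proteases, and exchanges the last invariant fragment for a peptide with the help of H2-DM. The genes are switched on together by Ciita, a coactivator that binds no DNA itself but docks on the RFX complex, CREB and NF-Y at the promoters, and in tissue cells Ciita is induced by interferon gamma. In the gut, dendritic cells, macrophages and B cells carry class II at rest, and the crypt epithelium carries it as well, at a level that depends on the microbiota and on interferon.

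H2-Aa and H2-Ab1 encode the alpha and the beta chain of I-A, the class II molecule of C57BL/6 mice. H2-Aa (GRCm38, chr17:34282744-34287823, minus strand) was at 107.9 and 204.1 CPM in WT and at 66.0 and 46.7 CPM in Vil-CREPTKO. Both Vil-CREPTKO libraries lay below both WT libraries, and the higher WT library was replicate 2. The fitted log2 fold change was -1.47 (SE 0.28), and it was -0.94 without WT replicate 2. H2-Ab1 (chr17:34257689-34269419, plus strand) was at 178.2 and 343.3 CPM in WT and at 132.4 and 122.1 CPM in Vil-CREPTKO. The order of the libraries was the same as for H2-Aa in that WT replicate 2 was highest and the groups did not overlap. The log2 fold change of H2-Ab1 was -1.03 (SE 0.27), or -0.48 without WT replicate 2.

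H2-Eb1 encodes the beta chain of I-E, which has no partner in C57BL/6 mice because the gene of its alpha chain is broken in this strain. H2-Eb1 (chr17:34305867-34316674, plus strand) was at 83.3 and 174.5 CPM in WT and at 77.4 and 62.5 CPM in Vil-CREPTKO. WT replicate 1 was only 1.08 times the higher Vil-CREPTKO library, the narrowest margin of the 7 genes whose groups did not overlap. H2-Eb1 had a log2 fold change of -0.88 (SE 0.29), or -0.25 without WT replicate 2. The pseudogene of the missing alpha chain, H2-Ea-ps, looked up after the other values were seen, had 0 counts in 3 libraries and 2 counts in Vil-CREPTKO replicate 2. H2-Eb2, a beta chain gene next to H2-Eb1 that was looked up in the same way, had 6 to 19 counts per library.

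Cd74, the invariant chain on chromosome 18 that shields the groove of new class II molecules, was the most abundant of the 10 per exon length. It was at 334.2 and 632.2 CPM in WT and at 204.1 and 209.3 CPM in Vil-CREPTKO. The 2 Vil-CREPTKO libraries were nearly equal, and the spread within groups was almost wholly between the WT libraries. Cd74 had a log2 fold change of -1.23 (SE 0.27), or -0.69 without WT replicate 2. Summed over H2-Aa, H2-Ab1, H2-Eb1 and Cd74, the level was 703.6 and 1354 CPM in WT and 480.0 and 440.6 CPM in Vil-CREPTKO. The log2 ratio of the group means of this sum was -1.16, and leaving out WT replicate 2 moved it to -0.61.

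Ciita, the coactivator of the pathway (chr16:10480059-10528418, plus strand), was at 8.99 and 25.3 CPM in WT and at 6.83 and 7.70 CPM in Vil-CREPTKO. WT replicate 2 was 2.81 times WT replicate 1, the widest gap between WT libraries among the 7 genes, while WT replicate 1 was 1.17 times the higher Vil-CREPTKO library. For Ciita the log2 fold change was -1.24 (SE 0.40), or -0.31 without WT replicate 2. Ciita overlaps Dexi on the other strand over 329 of its 9535 exon bases, and the strand of the counting was not stated. Dexi had 306 to 547 counts per library.

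H2-DMa and H2-DMb1 encode the chains of H2-DM, the endosomal catalyst of peptide exchange. H2-DMa (chr17:34119541-34139101, plus strand) was at 25.5 and 44.0 CPM in WT and at 15.2 and 15.3 CPM in Vil-CREPTKO. H2-DMb1 (chr17:34153072-34160230, plus strand) was at 25.1 and 47.1 CPM in WT and at 18.5 and 17.5 CPM in Vil-CREPTKO. Both genes had separate groups with WT replicate 2 on top, and their Vil-CREPTKO libraries agreed closely. The log2 fold change of H2-DMa was -1.19 (SE 0.23), or -0.74 without WT replicate 2. That of H2-DMb1 was -1.002 (SE 0.257), or -0.48 without WT replicate 2. H2-DMa shares 360 of 3448 exon bases with Brd2, a gene on the other strand with 8116 to 10540 counts per library and a log2 fold change of -0.03, so part of the H2-DMa counts may belong to Brd2.

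The remaining 3 genes were near the limit of detection and did not follow this order. H2-DMb2 (chr17:34143307-34151555, plus strand), a second H2-DM beta chain gene, had counts of 12 and 40 in the WT libraries and of 25 and 40 in the Vil-CREPTKO libraries. The first listed transcripts of H2-DMb1 and H2-DMb2 were 94.7% identical over 1246 aligned bases, and 21.2% of the 50-base words of H2-DMb2 transcripts also occurred in H2-DMb1, so that reads could be split between these genes and the level of H2-DMb2 is uncertain. No other pair compared among the alpha chain genes or among the beta chain genes, H2-Eb2 included, shared a 50-base word.

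H2-Oa and H2-Ob encode H2-DO, an inhibitor of H2-DM that is known mainly from B cells and thymus. H2-Oa (chr17:34092340-34095234, plus strand) had counts of 0 and 12 in the WT libraries and of 1 and 6 in the Vil-CREPTKO libraries and was not tested. BC051537, on the other strand, shares 321 of the 1407 exon bases of H2-Oa and had at most 2 counts in a library. A count of 0 allowed at most 3 counts, which was 0.0608 to 0.0635 CPM of a library total and covers counting error only. H2-Ob (chr17:34238903-34254414, plus strand) had counts of 16 and 37 in the WT libraries and of 13 and 68 in the Vil-CREPTKO libraries. In H2-Oa, H2-Ob and H2-DMb2 alike, the replicate 2 library was the higher one within each genotype, and the genotypes overlapped. The log2 fold change was 0.41 (SE 0.65) for H2-DMb2 and 0.67 (SE 0.75) for H2-Ob. The latter turned to -0.82 when Vil-CREPTKO replicate 2 was left out, and the former to -0.22 when WT replicate 1 was left out. Without WT replicate 2 these values were 1.56 for H2-DMb2 and 1.43 for H2-Ob.

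**Figure D1:**
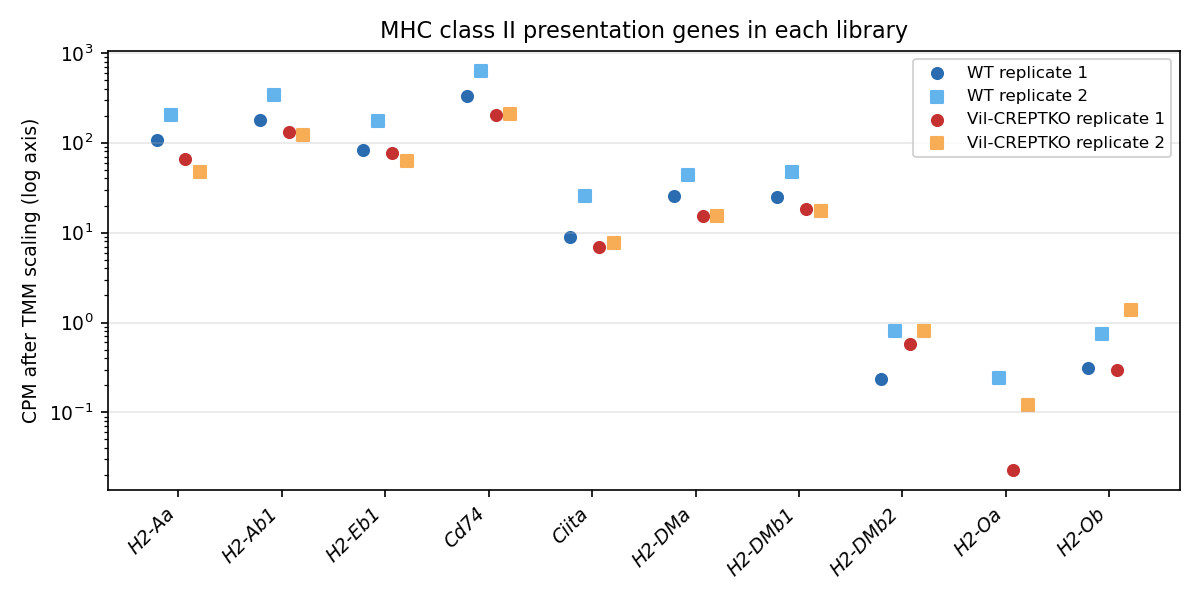
The plot shows CPM after TMM scaling on a log axis for each of the 10 genes, with 1 point per library and color and shape for genotype and replicate. For 7 genes both Vil-CREPTKO points lie below both WT points with WT replicate 2 highest, while H2-DMb2, H2-Oa and H2-Ob overlap between genotypes; H2-Oa in WT replicate 1 had 0 counts and is not drawn.

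Of the 9 genes tested, 2 (H2-Aa and H2-DMa) were called lower in Vil-CREPTKO, at an edgeR adjusted p under 0.05 and a log2 fold change under -1, and 0 were higher. Over all genes, 1.34% were called lower by this rule, 2.29% were lower at the adjusted p alone and 0.423% were higher. Both Vil-CREPTKO libraries lay below both WT libraries for 7 of these 9 genes and for 24.2% of all genes tested. With DESeq2, H2-Aa did not pass the adjusted p, while H2-Ab1, Cd74, H2-DMa and H2-DMb1 did, the last at a log2 fold change above -1. Since the same difference chose the genes, nothing is read from these counts. Without WT replicate 2 the edgeR count called lower was 0, H2-Aa alone keeping an adjusted p under 0.05 at a smaller fold change, and without WT replicate 1 it was 7. The median log2 fold change was -1.03 over the 9 genes and -0.01 over all genes tested.

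In these 7 genes the level in Vil-CREPTKO was 36.1% (H2-Aa) to 54.3% (H2-Eb1) of that in WT by group means. WT replicate 2 was 1.73 to 2.81 times WT replicate 1, and WT replicate 1 was 1.08 to 1.67 times the higher Vil-CREPTKO library. In H2-Eb1 and Ciita the ratio between the WT libraries (2.09 and 2.81) exceeded the ratio between the WT and Vil-CREPTKO group means (1.84 and 2.36). Whether the excess in WT replicate 2 goes with sex, with the animal or with the preparation cannot be told apart, since 1 library carries all of them. In bulk RNA, fewer cells that express class II and less class II RNA per cell cannot be told apart either.

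To compare levels between genes, CPM was divided by the merged exon length. Cd74 was highest with 288 ± 126 CPM per kb in WT (mean ± SD, n = 2) and 123 ± 2.18 in Vil-CREPTKO. H2-Ab1 followed at 102 ± 45.5 in WT and 49.6 ± 2.84 in Vil-CREPTKO, then H2-Eb1 at 66.3 ± 33.2 and 36.0 ± 5.43, and H2-Aa at 41.1 ± 17.9 and 14.8 ± 3.59. The genes of the chains that form the molecule thus came before those of peptide exchange. H2-DMb1 was at 21.5 ± 9.26 CPM per kb in WT, H2-DMa at 10.1 ± 3.79 and Ciita at 1.796 ± 1.21. H2-DMb2, H2-Ob and H2-Oa were at 0.300 ± 0.234, 0.0990 ± 0.0576 and 0.0866 ± 0.123 CPM per kb in WT.

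The order from Cd74 down to H2-DMb2 was the same in all 4 libraries. Within WT, the ranges of H2-Ab1 and H2-Eb1 overlapped, as did those of H2-Eb1 and H2-Aa. Those of H2-DMb2, H2-Ob and H2-Oa overlapped each other as well. The spread between WT libraries thus did not separate these neighbours, although H2-Ab1 was above H2-Eb1, and H2-Eb1 above H2-Aa, within every library. The place of H2-Aa depends on the length used: per kb of its first listed transcript (1128 bases, against 3798 merged exon bases) H2-Aa was at 95.7 and 180.9 CPM per kb in WT, above H2-Eb1 at 71.1 and 149.0, and in Vil-CREPTKO it was at 58.5 and 41.4, below H2-Eb1 at 66.1 and 53.4.

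Ratios between the genes were taken within each library. The count of H2-Aa per count of H2-Ab1 was 0.605 and 0.595 in WT against 0.498 and 0.383 in Vil-CREPTKO, so the alpha chain was lower against its own beta chain in both Vil-CREPTKO libraries. For H2-DMa over H2-DMb1 the ratio was 1.01 and 0.933 in WT against 0.820 and 0.872 in Vil-CREPTKO, which is the same direction for the other alpha and beta pair. Cd74 over H2-Ab1 was 1.88 and 1.84 in WT against 1.54 and 1.71 in Vil-CREPTKO, while H2-Eb1 over H2-Ab1 was 0.467 and 0.508 in WT against 0.584 and 0.512 in Vil-CREPTKO. Within WT, these 4 ratios differed less between the libraries than the level of H2-Ab1, which was 1.93 times as high in replicate 2. Ciita over Cd74 was less even, at 0.0269 and 0.0400 in WT against 0.0335 and 0.0368 in Vil-CREPTKO. No test was made on these ratios, and 2 libraries against 2 cannot reach a small p in an exact test.

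Promoter sequences are shown for 6 of the genes, because the class II promoters carry a shared pair of elements, the X box bound by RFX and the Y box bound by NF-Y, and because the RFX subunit Rfx5 differed between the genotypes. RefSeq promoter entries (GRCm38.p6) were matched for 7 of the 10 genes; H2-Ab1, Cd74 and Ciita are named only. The windows cover the bases 130 to 31 before the annotated start, in the direction of transcription: chr17:34305737-34305836 for H2-Eb1, chr17:34153061-34153160 for H2-DMb1, chr17:34145119-34145218 for H2-DMb2, chr17:34238775-34238874 for H2-Ob, chr17:34287854-34287953 (minus strand) for H2-Aa and chr17:34092249-34092348 for H2-Oa. Capitals mark the Y box core (CCAAT, or ATTGG on the other strand) and the stretch AACNNATG, which lies within the X box and was picked after the sequences had been read.
H2-Eb1: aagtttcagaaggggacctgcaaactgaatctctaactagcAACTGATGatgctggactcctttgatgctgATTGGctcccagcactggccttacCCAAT
H2-DMb1: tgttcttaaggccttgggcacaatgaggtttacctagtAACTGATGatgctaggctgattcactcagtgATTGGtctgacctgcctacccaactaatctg
H2-DMb2: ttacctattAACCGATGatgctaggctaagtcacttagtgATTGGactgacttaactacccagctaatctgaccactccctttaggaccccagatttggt
H2-Ob: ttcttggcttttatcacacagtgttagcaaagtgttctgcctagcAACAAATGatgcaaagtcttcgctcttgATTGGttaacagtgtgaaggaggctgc
H2-Aa: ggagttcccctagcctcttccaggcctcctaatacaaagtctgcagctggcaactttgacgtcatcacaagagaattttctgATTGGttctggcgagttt
H2-Oa: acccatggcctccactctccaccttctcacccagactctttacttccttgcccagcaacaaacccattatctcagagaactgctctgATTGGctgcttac
All 7 matched genes had the Y box core on either strand within the 250 bases before a start, as had 33.8% of the 32851 promoters in the table. In H2-DMa, which has 2 annotated starts, it lay 198 bases before the second start, outside the window. The stretch AACNNATG occurred in 4 genes (H2-Eb1, H2-DMb1, H2-DMb2 and H2-Ob) and in 7.71% of all promoters, and 20 to 23 bases separated it from the ATTGG that followed it. The full X box consensus, searched on both strands, was matched in H2-DMb1 and H2-Ob and in 0.393% of all promoters. H2-DMb1 and H2-DMb2 both hold the stretch 23 bases before ATTGG, although H2-DMb1 was at 10.4 to 11.0 CPM per kb and H2-DMb2 at 0.329 to 0.466 in Vil-CREPTKO. These matches are letters found in a window and show no binding.

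Of 60 tested genes in the pathway lists, 1 was lower and 1 was higher at an adjusted p under 0.05. The gene that fell was Rfx5, the DNA-binding subunit of the RFX complex. Rfx5 was at 10.2 and 10.5 CPM in WT and at 3.61 and 3.99 CPM in Vil-CREPTKO. Unlike the class II genes, Rfx5 was nearly equal in the 2 WT libraries, and WT replicate 2 did not stand out. It fell by 1.44 on the log2 scale (SE 0.20) with an edgeR adjusted p of 0.00847, and by 1.42 without WT replicate 2 with an edgeR adjusted p of 0.00855. An antisense gene, B230398E01Rik, covers 1471 of the 5497 exon bases of Rfx5 and had at most 8 counts in a library.

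The other promoter factors did not pass the test. Rfxap, a second RFX subunit, was at 17.5 and 16.2 CPM in WT and at 20.5 and 18.6 CPM in Vil-CREPTKO (edgeR adjusted p = 0.588 for a log2 fold change of 0.22, SE 0.15). Rfxank, the third subunit and named after its values were seen, was at 14.3 and 15.0 CPM in WT and at 11.1 and 10.3 CPM in Vil-CREPTKO (edgeR adjusted p = 0.229 for a log2 fold change of -0.45, SE 0.16). The libraries did not overlap in Rfxank, but the gene shares 1341 of 3967 exon bases with Nr2c2ap on the other strand. The NF-Y subunits and Creb1 had log2 fold changes from -0.07 to 0.12.

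**Figure D2:**
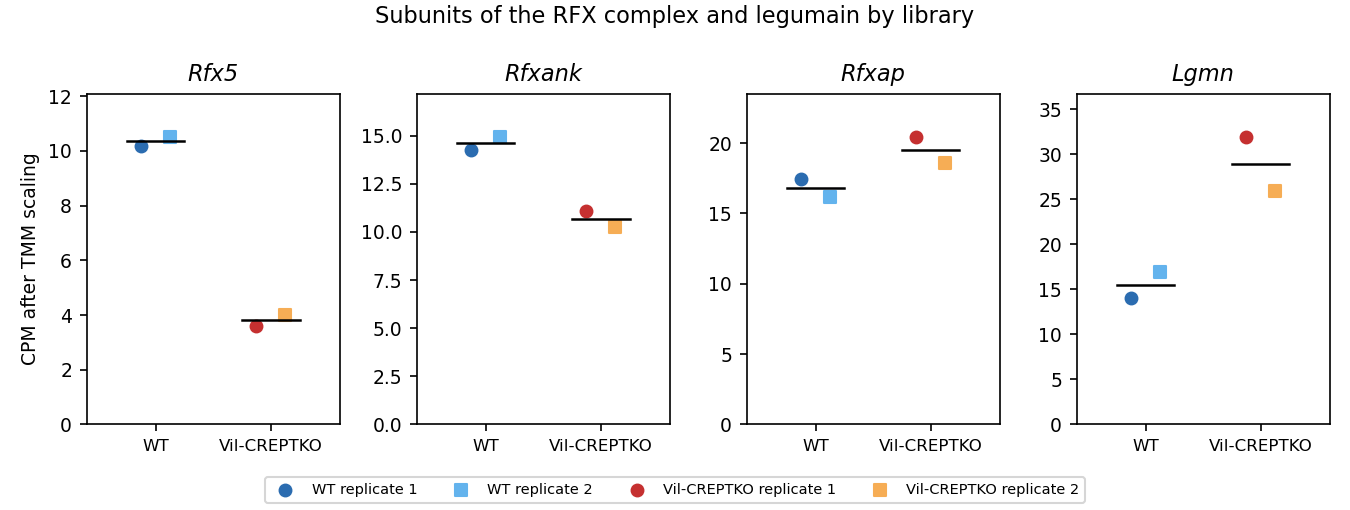
Each panel plots CPM after TMM scaling from 0 for 1 gene, with 1 point per library and a bar at the group mean. Rfx5 is at 10.2 and 10.5 CPM in WT against 3.61 and 3.99 in Vil-CREPTKO and Lgmn is higher in Vil-CREPTKO, whereas Rfxank and Rfxap did not pass the test.

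The gene that rose was Lgmn, which encodes legumain, an asparaginyl endopeptidase of the endosome that cuts antigens and the invariant chain. Lgmn was at 14.1 and 16.9 CPM in WT and at 31.98 and 25.97 CPM in Vil-CREPTKO. Both Vil-CREPTKO libraries were above both WT libraries. Lgmn rose by 0.90 on the log2 scale (SE 0.17), with an edgeR adjusted p of 0.0284, and by 1.04 without WT replicate 2 (edgeR adjusted p = 0.0134). The adjusted p no longer passed when WT replicate 1 was left out (0.78, edgeR adjusted p = 0.0505) and when Vil-CREPTKO replicate 1 was left out (0.74, edgeR adjusted p = 0.0715).

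The other 10 tested genes of endosomal processing did not pass the test. Ctss, the cathepsin that makes the last cuts in the invariant chain, was at 79.3 and 100.2 CPM in WT and at 104.7 and 85.9 CPM in Vil-CREPTKO, with overlapping groups (log2 fold change 0.09, SE 0.16). Ctsl, a related cathepsin, had a log2 fold change of 0.18 (SE 0.20). Among the 11 genes 2 were negative and 9 positive, with a median of 0.09.

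**Figure D3:**
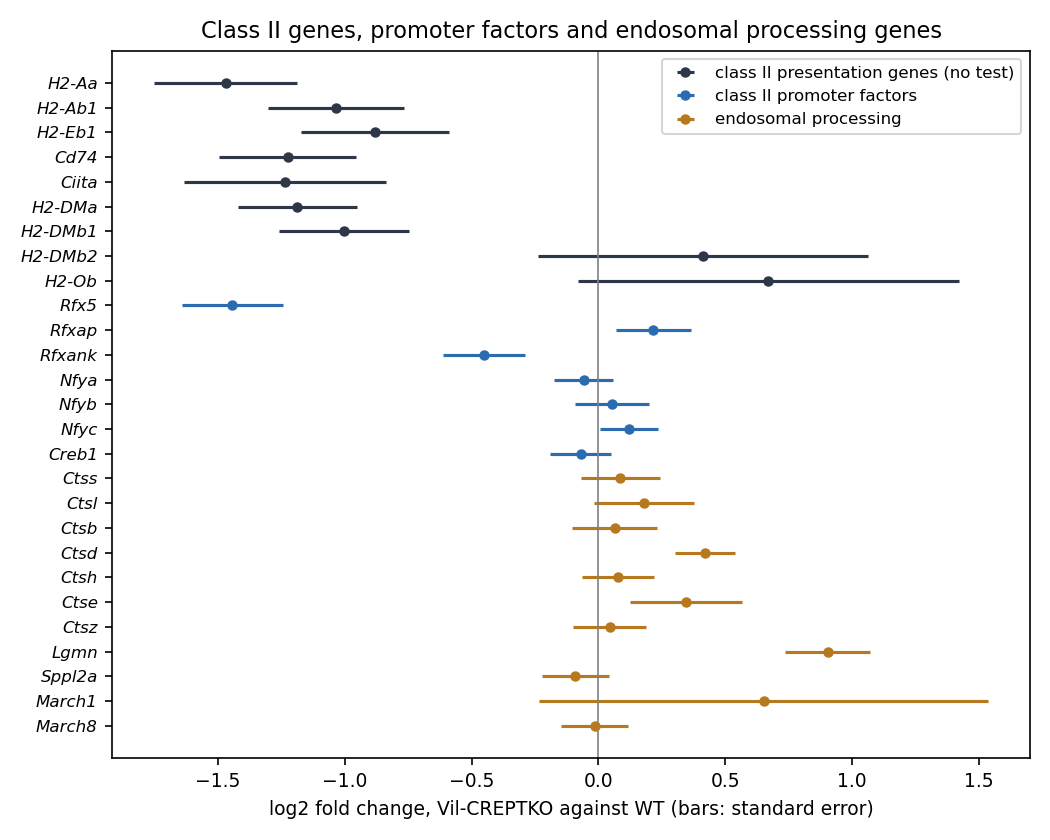
Points give the fitted log2 fold change of Vil-CREPTKO against WT and bars its standard error, for the 9 class II presentation genes in the fit (dark), the promoter factors (blue) and the genes of endosomal processing (brown). The 7 abundant class II genes lie between -1.47 and -0.88, Rfx5 at -1.44 and Lgmn at 0.90, while the other promoter factors and processing genes did not pass the test.

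Interferon gamma acts through its receptor to induce Ciita, and none of the 8 tested genes of its signalling list passed the edgeR test (1 at an unadjusted p under 0.05, and 0 by DESeq2). The cytokine itself, Ifng, had 1 to 6 counts per library and was not tested. Over all 17504 genes tested, 2495 had an unadjusted edgeR p under 0.05. Ifngr1, the ligand-binding receptor chain, was at 130.2 and 121.7 CPM in WT and at 134.9 and 135.9 CPM in Vil-CREPTKO, which gave 0.10 as the log2 fold change (SE 0.12). Ifngr2, the other receptor chain, had a log2 fold change of -0.13 (SE 0.15).

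Among 27 target genes of interferon gamma, 0 passed the edgeR test and 1 (Irgm2) passed in DESeq2. An unadjusted edgeR p under 0.05 was found in 5 of the 27 (Gbp3, Irgm2, Psmb10, Tgtp1 and Ubd). The same held for 2495 of all 17504 genes tested. Of the 27 target genes 24 had a negative and 3 a positive log2 fold change, with a median of -0.44 against -0.01 over all genes. This shift rested mostly on WT replicate 2. The median log2 CPM, each gene centred on its mean over the libraries, was -0.10 in WT replicate 1 and 0.44 in WT replicate 2. It was -0.20 and -0.16 in Vil-CREPTKO. Both Vil-CREPTKO libraries were below both WT libraries in 10 of the 27, an order that 24.2% of all genes tested showed. WT replicate 2 was the highest library in 20 of the 27, as it was in 8 of the 10 class II genes. The share of all genes highest in that library was not taken. The first genes of the list, Gbp2 and Gbp3, which encode interferon-induced GTPases, had log2 fold changes of -0.28 (SE 0.29) and -0.90 (SE 0.32). Igtp, another such GTPase, named after its values were seen, was at 14.9 and 53.0 CPM in WT and at 13.7 and 19.7 CPM in Vil-CREPTKO, so the excess of WT replicate 2 was larger than in any classical class II gene.

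The class II genes on chromosome 17 are interspersed with others, which were compared as neighbours. The 8 class II genes there span 213.5 kb from the start of H2-Oa to that of H2-Eb1, and of 9 other genes in this interval 6 were tested. None passed the edgeR test (0 at an unadjusted p under 0.05, and 0 by DESeq2). All 6 had a negative log2 fold change, with a median of -0.26. Psmb9, Psmb8, Tap1 and Tap2, named for this reason, also stand in the list of interferon gamma targets. The lists thus share genes and are not separate observations. Gm15821, another of the 6 and named for its low counts, had 3 to 22 counts per library. Brd2, a chromatin reader next to H2-DMa, was at 197.7 and 212.6 CPM in WT and at 186.7 and 214.6 CPM in Vil-CREPTKO. Psmb9, a subunit of the immunoproteasome that makes peptides for class I, was at 97.9 and 149.6 CPM in WT and at 96.6 and 111.5 CPM in Vil-CREPTKO. Here too WT replicate 2 was high, but WT replicate 1 lay within the range of the Vil-CREPTKO libraries.

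**Figure D4:**
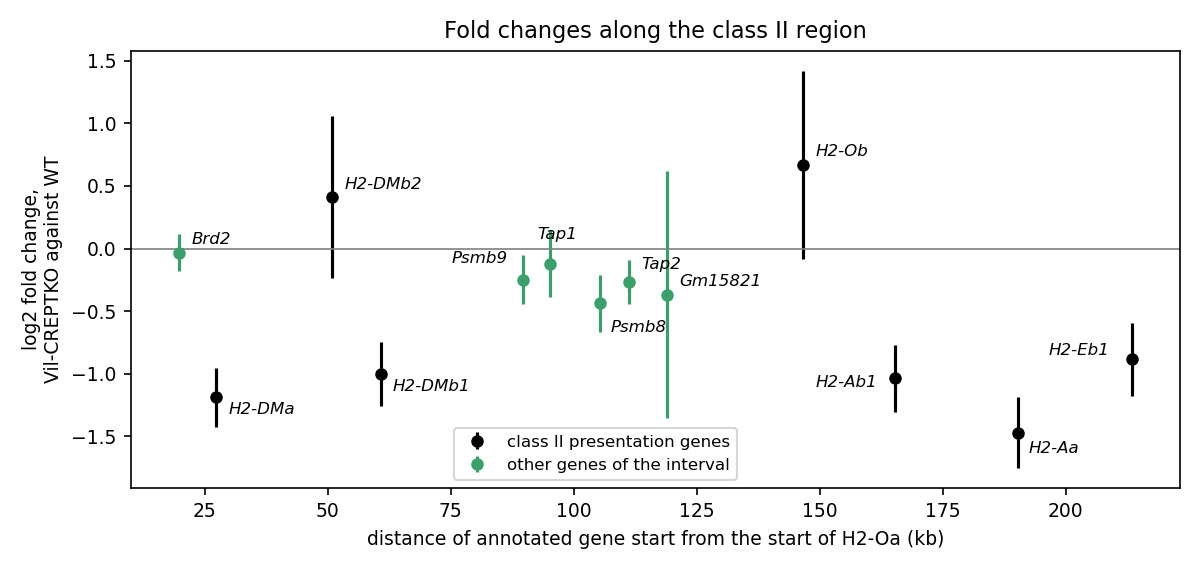
Each point is a tested gene of the class II region, placed by the distance of its annotated start from that of H2-Oa in kb, with the log2 fold change and its standard error. The genes between the class II genes (green) lie between -0.44 and -0.03, H2-DMa, H2-DMb1, H2-Ab1, H2-Aa and H2-Eb1 between -1.47 and -0.88, and H2-DMb2 and H2-Ob above 0 with wide bars.

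Costimulation and checkpoint ligands, the surface proteins that accompany presentation, were low. Of 10 such genes 5 were tested and 0 passed the edgeR test (0 at an unadjusted p under 0.05, and 0 by DESeq2). Icosl, a ligand of a T cell costimulatory receptor, was at 7.48 and 6.68 CPM in WT and at 14.2 and 7.45 CPM in Vil-CREPTKO. Cd274, which encodes the checkpoint ligand PD-L1, was at 3.17 and 2.68 CPM in WT and at 2.97 and 2.57 CPM in Vil-CREPTKO. Cd86, a ligand typical of activated antigen-presenting cells and named after its values were seen, had 0 to 10 counts per library.

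Markers of the cell types that carry class II were measured in the same libraries. Of 93 tested marker genes, 0 passed the edgeR test, 8 had an unadjusted p under 0.05 and 5 passed in DESeq2 (Fabp1, Gkn3, Igha, Igkc and Jchain). These 5 mark villus enterocytes, stem cells and plasma cells. Of all 17504 genes tested, 2495 had an unadjusted edgeR p under 0.05. The summed B cell markers were at 2.84 and 9.83 CPM in WT and at 3.54 and 11.0 CPM in Vil-CREPTKO, high in replicate 2 of each genotype, and 1 of the 10 markers was at 0 in each replicate 1 library (Fcmr in WT and Fcer2a in Vil-CREPTKO). Cd79a, the signalling chain of the B cell receptor, was at 0.392 and 1.63 CPM in WT and at 0.483 and 1.89 CPM in Vil-CREPTKO. In H2-Oa, H2-Ob and H2-DMb2 too the replicate 2 library was the higher one of each genotype, as it was in Cd74, Ciita and H2-DMa but not in H2-Aa, H2-Ab1, H2-Eb1 and H2-DMb1. Per CPM of B cell markers, the classical chains and Cd74 were at 248 and 138 CPM in WT and at 136 and 40.2 CPM in Vil-CREPTKO.

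Dendritic cell markers summed to 15.8 and 10.8 CPM in WT and to 13.6 and 11.0 CPM in Vil-CREPTKO, with 5 of 9 markers tested and Ccr7 at 0 in both replicate 1 libraries. Itgax, which encodes CD11c, was lowest in WT replicate 2 (7.13 CPM, against 8.25 to 12.3 CPM elsewhere). Siglech and Clec9a, named after their values were seen, were highest in that library: Siglech was at 1.94 and 2.11 CPM in WT and at 1.91 and 1.202 CPM in Vil-CREPTKO, and Clec9a, which was too low to be tested, had 8 and 21 counts in the WT libraries and 3 counts in each Vil-CREPTKO library. Flt3, the growth factor receptor of dendritic cells, had 10 to 23 counts per library. Macrophage markers summed to 69.0 and 101.0 CPM in WT and to 134.4 and 72.2 CPM in Vil-CREPTKO, with Adgre1 highest in Vil-CREPTKO replicate 1. Leukocyte markers as a whole summed to 164.1 and 118.9 CPM in WT and to 133.8 and 103.4 CPM in Vil-CREPTKO, and T cell and intraepithelial lymphocyte markers to 933.3 and 735.0 CPM in WT and to 696.6 and 579.7 CPM in Vil-CREPTKO. In both of these lists WT replicate 1, not WT replicate 2, was highest. Per CPM of leukocyte markers, the classical chains and Cd74 were at 4.29 and 11.4 CPM in WT and at 3.59 and 4.26 CPM in Vil-CREPTKO, so that WT replicate 1 was close to Vil-CREPTKO replicate 2. Per CPM of T cell and intraepithelial lymphocyte markers, they were at 0.754 and 1.84 CPM in WT and at 0.689 and 0.760 CPM in Vil-CREPTKO, and the genotypes overlapped. Against dendritic cell markers the values were 44.5 and 126 in WT, then 35.2 and 40.1 in Vil-CREPTKO, and against macrophage markers 10.2 and 13.4 in WT, then 3.57 and 6.11 in Vil-CREPTKO, without overlap. Markers of innate lymphoid cells, some of which carry class II, summed to 36.1 and 30.8 CPM in WT and to 37.8 and 23.6 CPM in Vil-CREPTKO. Endothelium and stroma markers summed to 8.64 and 9.96 CPM in WT and to 21.2 and 5.50 CPM in Vil-CREPTKO, and plasma cell markers to 119.7 and 66.4 CPM in WT and to 148.0 and 195.8 CPM in Vil-CREPTKO. The part of these cells in the class II levels was not tested.

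The epithelium markers (Epcam, Vil1 and 6 others) summed to 9294 and 10490 CPM in WT and to 10760 and 9640 CPM in Vil-CREPTKO, so the libraries were epithelial by their defining markers. Per CPM of epithelial markers, the classical chains and Cd74 were at 0.0757 and 0.129 CPM in WT and at 0.0446 and 0.0457 CPM in Vil-CREPTKO. Stem cell markers summed to 2336 and 1910 CPM in WT and to 1542 and 2229 CPM in Vil-CREPTKO, and villus enterocyte markers to 13680 and 18040 CPM in WT and to 24340 and 14760 CPM in Vil-CREPTKO. Markers of the proximal small intestine summed to 2915 and 3751 CPM in WT and to 4374 and 3246 CPM in Vil-CREPTKO, and those of the distal small intestine to 117.8 and 171.5 CPM in WT and to 169.2 and 140.3 CPM in Vil-CREPTKO. The stem cell and villus lists set Vil-CREPTKO replicate 1 apart from replicate 2, whereas the summed classical chains and Cd74 were at 480.0 and 440.6 CPM in these 2 libraries.

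**Figure D5:**
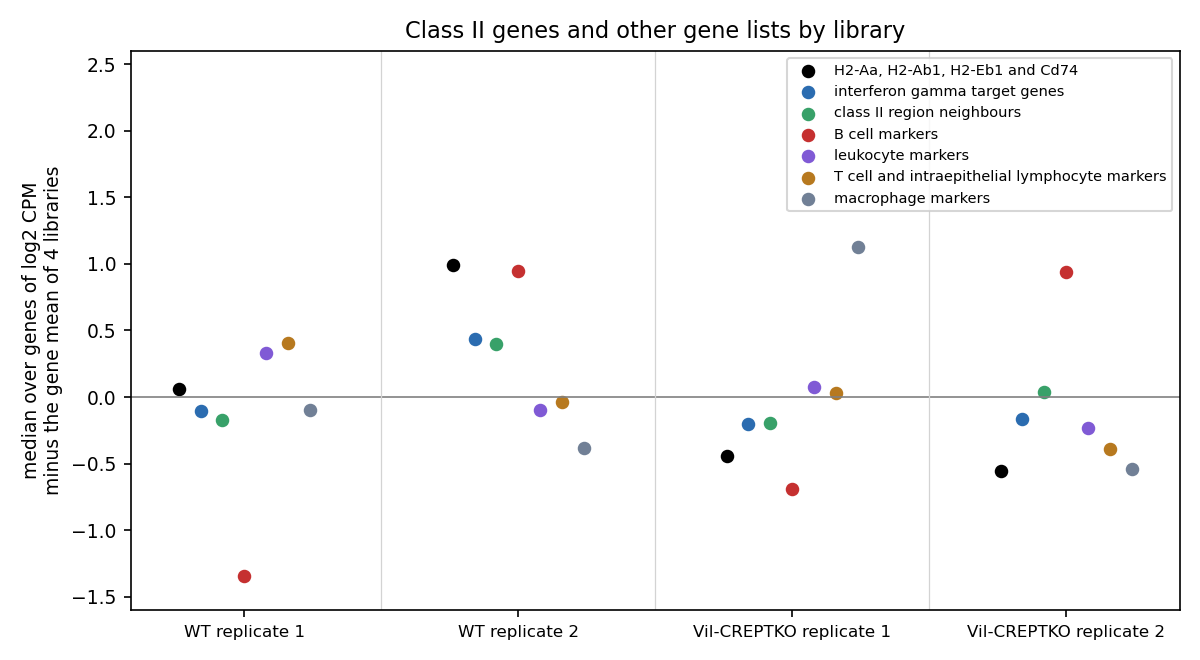
For each list and library the point is the median over its tested genes of the log2 CPM minus the mean of that gene over the 4 libraries. The classical class II chains with Cd74 (black) are at 0.99 in WT replicate 2 and below 0 in both Vil-CREPTKO libraries, interferon gamma targets are at 0.44 in WT replicate 2, and B cell markers are at 0.94 in the replicate 2 library of each genotype.

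The profile of the class II genes over the 4 libraries was compared with that of 12160 genes whose log2 CPM averaged at least 1, each centred on its own mean on the log2 CPM scale. The mean profile of H2-Aa, H2-Ab1, H2-Eb1 and Cd74 was 0.06 and 1.02 in WT against -0.43 and -0.65 in Vil-CREPTKO. Among the nearest genes outside the 10 were Siglecf, Gm5431, Irgm2 and 9130019O22Rik, with root mean square differences of 0.0825 to 0.141 over 4 libraries. Siglecf, which encodes a sialic acid receptor, was at 10.9 and 24.2 CPM in WT and at 7.89 and 6.52 CPM in Vil-CREPTKO. Irgm2, an interferon-induced GTPase, was at 20.1 and 42.0 CPM in WT and at 14.2 and 15.5 CPM in Vil-CREPTKO. H2-DMa, H2-DMb1 and Ciita differed from the same mean profile by 0.106, 0.0923 and 0.232, and H2-DMb2 and H2-Ob by 0.897 and 1.10, so that 95.5% and 98.6% of the genes compared were nearer than they. With 4 libraries, of which 1 stands apart, such likeness is a description.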

How the data were processed

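The values were whole-number counts of reads for each gene that the authors deposited, for 2 WT and 2 Vil-CREPTKO libraries of crypt RNA. The study's methods and the submitters' processing notes name Bowtie2 mapping to GRCm38.p6 transcripts, RSEM and CASAVA 1.8. The strand of counting is not given in the sources used here, and the instrument is given as BGISEQ or Illumina depending on the source. Identifiers were matched to GENCODE M21 (53360 of 53845 rows, 99.1%). Unnamed loci (380 rows, 0.178% to 0.247% of the counts) were kept in the tests.

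Counts were analysed with edgeR 4.0.16 in R 4.3.3: filterByExpr (17504 genes), TMM scaling, a quasi-likelihood model with the genotype as its term, two-sided tests and Benjamini-Hochberg adjustment over all genes tested. A gene was called at an adjusted p under 0.05 and an absolute log2 fold change over 1. CPM are counts scaled to a common library size by TMM. The common biological coefficient of variation was 0.188, so the spread between libraries set the precision for genes with many counts. For genes with few counts, such as H2-DMb2 and H2-Ob, counting error added to it. The groups were taken from the sample titles. The libraries of a group differed by a chi-square of 49.8 (WT) and 70.1 (Vil-CREPTKO) per gene and were kept as separate samples; a legend of the study gives 2 mice per genotype for values from RNA-seq, and p-values measure the spread between these libraries.

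The 10 genes and all lists were chosen with earlier results of these data known. The text names the 10 genes, Rprd1b, list genes with an adjusted p under 0.05, up to 2 first tested genes of each list described, and genes among the 5 nearest in profile, and it says which others were chosen after their values were seen. Some genes that the rule covers are not reported here. The fits were tested on simulated data. Alternatives were DESeq2 1.42.0, RLE and upper-quartile scaling, library totals, no filter, at least 10 counts in every library, a replicate block, a GC and length correction, a prior count of 2, no fold threshold, the ratio of group means, and each library left out.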

Additional observations from a re-analysis of the deposited data

How the results depend on the processing

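The log2 fold changes of H2-Aa, H2-Ab1, H2-Eb1, Cd74, Ciita, H2-DMa and H2-DMb1 were negative under all 15 settings tried, and each moved by more than the spread between replicates in 1 setting, the loss of WT replicate 2. H2-DMb2 and H2-Ob turned negative in 1 setting each. Rfx5 passed the threshold under all 13 alternatives and Lgmn under 11 of them. The number of class II genes called lower (2) was 6 with library totals, 6 with no low-count filter and 1 with the GC and length correction, and 3 with DESeq2, without H2-Aa. The pathway count (2) was 7 with no filter. The marker count (0) was 5 with DESeq2, 2 with library totals, 6 with no filter and 2 with the GC and length correction. Over all genes, 235 were called lower and 52 higher, against 87 higher with DESeq2, 379 lower with library totals, 450 lower and 163 higher with no filter, and 400 lower with no fold threshold; the cause of these shifts was not tested. With each library left out in turn, the counts were 225 to 308 lower, 62 to 135 higher (135 without Vil-CREPTKO replicate 2), 0 (without WT replicate 2) to 7 (without WT replicate 1) class II genes, 1 (without Vil-CREPTKO replicate 1) to 7 (without WT replicate 1) pathway genes and 2 to 7 marker genes (7 without Vil-CREPTKO replicate 2), and the log2 ratio of the summed classical chains and Cd74 was -1.56 to -0.61; where 1 library of a group remained, it was assumed to vary like the other group. Over all genes tested, the deviations of same-numbered libraries from their group means were nearly uncorrelated (0.0277), which cannot show how the libraries were prepared. The B cell markers were high in replicate 2 of each genotype. With the replicate block the counts were 269 lower, 67 higher, 3 class II, 3 pathway and 2 marker genes, Irgm2 being the added pathway gene. With 2 libraries a group, 1 of them the only Xist-positive library, the size of the class II difference is not fixed by these data, and H2-DMb2, H2-Oa and H2-Ob rest on 0 to 68 counts per library.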
